A study of Homo sapiens with 24 samples.

Results

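Long intergenic noncoding (LINC) genes make RNAs that encode no protein and mostly lie between protein-coding genes. Of the 95074 regions tested for H3K27Ac between shANCO1 and shCTRL cells, 2588 carried LINC genes and no other gene in the authors' annotation. They were taken as the regions with at least 1 annotated gene where every annotated symbol began with LINC. There were 1335 such LINC-only regions of 50284 in 10A and 1253 of 44790 in DCIS. They fell on 541 LINC symbols in 10A and 527 in DCIS, with 376 symbols in both lines and 692 in all.

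10A (MCF10A) is a non-tumorigenic human mammary epithelial line, and DCIS (MCFDCIS) descends from it and serves as a model of ductal carcinoma in situ. Cells of each line carried a lentiviral hairpin against ANCO1, the chromatin cofactor encoded by ANKRD11, or a control hairpin against GFP, labelled shCTRL. H3K27Ac immunoprecipitates and inputs were sequenced from 10A shANCO1, 10A shCTRL, DCIS shANCO1 and DCIS shCTRL cells, with 3 libraries in each of 8 groups and 24 in all. All groups grew in the same medium with horse serum, EGF, hydrocortisone, insulin and cholera toxin. The labels do not say which hairpin sequence was used. The study names the shANCO1 #3 line for its H3K27Ac figures, so the values here may rest on that hairpin alone. Nor do the labels say whether the 3 libraries came from separate cultures, so the tests measure only the spread between these libraries. The deposited tables hold 1 value per region for whole groups, so no value per library, no standard deviation and no read depth can be given. ANCO1 itself could not be checked in these tables, since H3K27Ac does not measure knockdown.

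H3K27Ac is the acetylation of lysine 27 on histone H3, a mark of active promoters and enhancers. Many LINC genes have a promoter of their own, many have introns that hold enhancers, and some have been named as partners of a nearby protein-coding gene. Acetylation over a LINC gene therefore marks active DNA at that place, which may belong to the LINC promoter or to an enhancer inside the gene. RNA was not among the data used here, although the study also sequenced RNA from shANCO1 and shCTRL cells of both lines.

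Among shCTRL regions enriched over input, 6 of 8 basal mammary epithelial markers had a region in 10A and 7 of 8 in DCIS, within 5 kb of the gene, with KRT14 lacking one in both lines and KRT17 in 10A. PTPRC and CD3E, markers of blood cells, had no such region in either line. PECAM1 and CDH5, markers of endothelium, and ESR1, the estrogen receptor, had at least 1 in both lines.

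The sequences below are 150 bases each from 5 LINC-only regions that carry the largest changes, on the plus strand of GRCh38. They are shown because in DCIS the regions that rose and fell differed in how often they held the AP-1 consensus. In 10A too few fell to tell. The consensus is the binding sequence of JUN and FOS dimers, TGACTCA or TGAGTCA, which is in capitals where present. LINC01349 (chr1:100630860-100631009, intron) held the largest gain in 10A, and LINC01444 (chr18:14975176-14975325, promoter) and LINC02241 (chr5:20679121-20679270, intron) the largest gains in DCIS, among regions of at least 5 windows. LINC01789 (chr2:107326326-107326475, intron) held the largest loss in DCIS under the same limit of at least 5 windows. LINC02053 (chr3:180433026-180433175, intron) held the shared gain with the largest smaller value, and its stretch is taken from the bases that the regions of both lines have in common.
LINC01349: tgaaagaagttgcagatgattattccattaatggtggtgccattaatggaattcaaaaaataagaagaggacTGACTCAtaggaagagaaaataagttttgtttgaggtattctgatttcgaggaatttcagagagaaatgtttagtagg
LINC02241: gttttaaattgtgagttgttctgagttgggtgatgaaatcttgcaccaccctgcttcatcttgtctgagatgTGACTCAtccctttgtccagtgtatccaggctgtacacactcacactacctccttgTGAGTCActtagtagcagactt
LINC01444: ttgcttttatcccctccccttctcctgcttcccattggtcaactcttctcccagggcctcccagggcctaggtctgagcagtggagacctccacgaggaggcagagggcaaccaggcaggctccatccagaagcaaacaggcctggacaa
LINC02053: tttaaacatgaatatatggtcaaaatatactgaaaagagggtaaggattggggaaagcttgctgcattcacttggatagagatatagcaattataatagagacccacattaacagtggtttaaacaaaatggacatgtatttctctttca
LINC01789: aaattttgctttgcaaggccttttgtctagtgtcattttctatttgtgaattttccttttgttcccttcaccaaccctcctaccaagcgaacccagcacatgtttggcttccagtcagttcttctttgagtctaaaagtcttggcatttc
The stretch from LINC01349 held 1 AP-1 match and that from LINC02241 held 2. The stretches from LINC01444, LINC02053 and LINC01789 held none, and neither did their full regions. Stretches from LINC01349 and LINC02241 were placed on a match, and the others at the midpoint of the region or of the shared bases. They are therefore examples and cannot be compared as samples. The LINC01349 stretch lies outside the 500 bp at the region midpoint that were searched for the AP-1 shares below.

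In 10A, H3K27Ac rose over LINC-only regions far more often than it fell. By the authors' csaw test, at an FDR under 0.05 over all regions of the table, 515 of the 1335 rose (38.6%, Wilson 95% interval 36.0 to 41.2) and 5 fell (0.375%). Over all 10A regions, 43.6% rose and 0.225% fell. The median log2 fold change, shANCO1 over shCTRL, was 0.74 over LINC-only regions against 0.76 over all regions. Regions that rose had a median log2 fold change of 1.10. The Wilson intervals here count regions, which are not replicates and can lie side by side, and so cover neither the spread between cultures nor read counting.

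In DCIS, LINC-only regions rose less often than in 10A and fell more often. There, 352 of 1253 rose (28.1%, 25.7 to 30.6), 103 fell (8.22%, 6.82 to 9.87) and 1 was mixed. Over all DCIS regions, 23.6% rose and 4.86% fell. The median log2 fold change was 0.59 over LINC-only regions and 0.52 over all regions, with a median of 1.77 among those that rose and -1.74 among those that fell. The lines have separate tables, and no test compared one line with the other. The normalization behind the tables sets the zero of the log2 scale and is not stated. Without regard to calls, 19 LINC-only regions in 10A lay 1 log2 unit or more above the median of the table (1.42%, beside 1.14% of all regions) and 88 as far below it (6.59%, beside 4.35%). In DCIS 244 lay above (19.5%, beside 16.5%) and 300 below (23.9%, beside 20.6%). Measured from these medians, large departures were thus more often downward in both lines, and gains beyond that distance were more numerous in DCIS than in 10A, the reverse of the counts of calls.

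**Figure D1:**
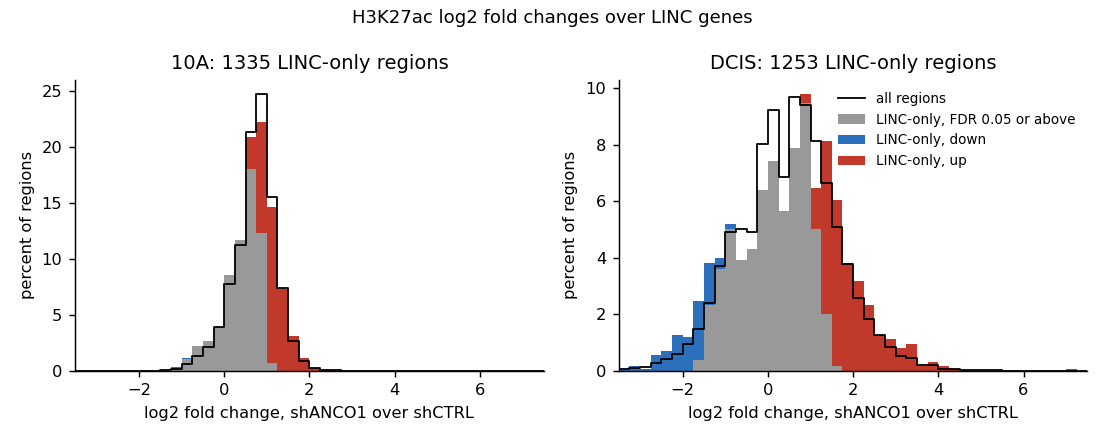
Distribution of the log2 fold change of H3K27Ac, shANCO1 over shCTRL, in bins of 0.25, as percent of regions. Bars are LINC-only regions coloured by call, and the black line is all regions of the table. In 10A the bars follow the line around a median of 0.74, and in DCIS they spread wider, with 352 regions up and 103 down.

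The authors' annotation places each region on a promoter, an exon or an intron of the gene. LINC-only regions on a promoter rose in 43.2% of 618 cases in 10A, against 50.8% of all promoter regions. In DCIS the order was the other way, with 26.4% of 610 LINC-only promoter regions up against 16.3% of all promoter regions. By the choice itself, LINC-only promoter regions leave out those annotated with a protein-coding gene, and their median distance to a protein-coding start in DCIS was 91428.5 bp, against 2269 bp for all promoter regions. Losses in DCIS took 8.03% of LINC-only promoter regions and 3.27% of all promoter regions.

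Regions with an exon of a LINC gene and no promoter rose in 40.5% of 79 cases in 10A and 37.3% of 67 in DCIS, against 46.4% and 35.8% of all exon regions. Regions on LINC introns alone rose in 33.9% of 638 cases in 10A and 28.8% of 576 in DCIS, against 34.6% and 30.6% of all intron regions. Among intron regions the LINC-only share of gains therefore lay within its interval of the share over all regions in both lines. In DCIS, losses took 8.96% of exon regions and 8.33% of intron regions over LINC genes, beside 7.61% and 5.59% of all such regions. The 5 regions that fell in 10A were 3 on a promoter (0.485%) and 2 on an intron (0.313%), where 0.128% of all promoter regions, 0.174% of all exon regions and 0.281% of all intron regions fell.

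LINC-only regions lay far from protein-coding starts, which the choice in large part fixed, since a region annotated with a protein-coding gene could not be chosen. Within 5 kb of such a start lay 26.4% of all regions in 10A and 31.0% in DCIS, and 1 LINC-only region in 10A. In 10A, 77.1% lay more than 50 kb from the nearest protein-coding start in GENCODE, against 37.8% of all regions, and in DCIS 78.3% against 35.3%. The median distance was 119245 bp in 10A and 129223 bp in DCIS, beside 28749 bp and 23566 bp for all regions. In DCIS, 33.1% of LINC-only regions at 5 to 50 kb rose, beside 30.2% of all regions at that distance, and 26.7% of those beyond 50 kb, beside 29.1%. At the same distances in 10A, 42.0% and 37.6% of LINC-only regions rose, beside 40.8% and 37.8% of all regions. Losses in DCIS beyond 50 kb took 9.48% of LINC-only regions and 7.51% of all regions. At 5 to 50 kb the order was the other way, with losses in 3.68% of LINC-only regions and 4.47% of all regions. Set against regions at the same distance, the shares of gains over LINC genes differed from those of the table by less than 3 percentage points in every case given here.

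**Figure D2:**
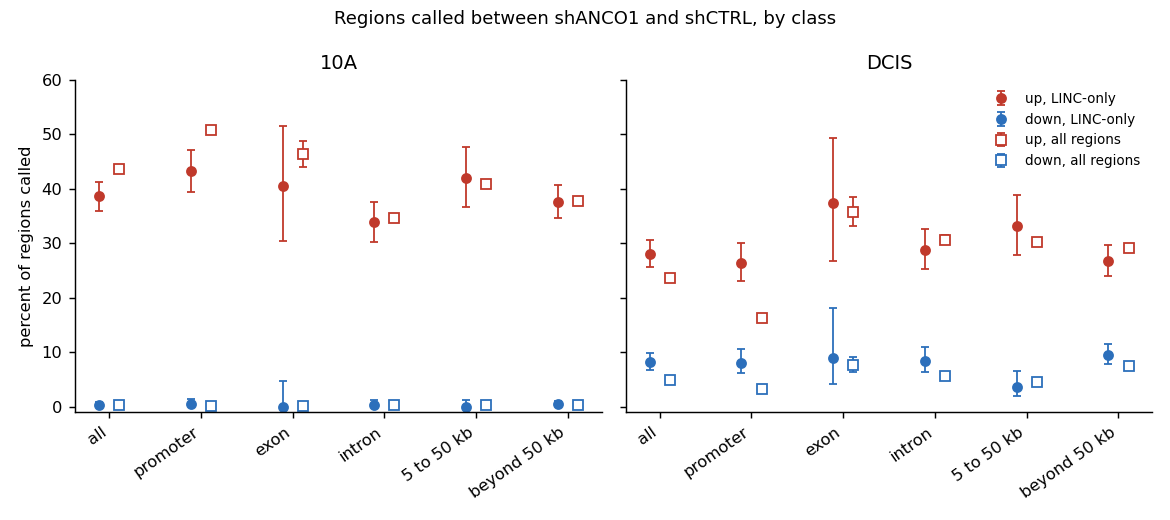
Percent of regions that rose (red) or fell (blue) at an FDR under 0.05, for all regions, by annotation, and by distance from the nearest protein-coding start. Filled circles are LINC-only regions, open squares are all regions, and bars are Wilson 95% intervals over regions. In DCIS promoters the filled red circle sits at 26.4% and the open square at 16.3%, and beyond 50 kb the pair is close.

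Comparison with input shows which LINC-only regions overlapped a region enriched over input in which cells. Such overlap went with region size. In DCIS, 0.977% of LINC-only regions of 1 to 4 windows met one enriched in shANCO1 cells, beside 0.603% of all such regions. At 15 to 50 windows the shares were 68.8% and 77.1%. A region without overlap therefore cannot be taken as unmarked. In 10A, 40.3% overlapped a region enriched over input in shANCO1 cells and 21.9% one enriched in shCTRL cells, where all 10A regions gave 45.2% and 23.5%. In DCIS the shares were 24.1% in shANCO1 cells and 22.2% in shCTRL cells, beside 30.3% and 27% of all regions. Of the 515 LINC-only regions that rose in 10A, 353 overlapped a region enriched in shANCO1 cells and 178 one enriched in shCTRL cells, while 162 met neither (68.5%, 34.6% and 31.5%, beside 70.0%, 34.6% and 29.9% of all regions that rose). Of the 352 that rose in DCIS, 124 met the enriched regions of shANCO1 cells, 40 those of shCTRL cells and 228 neither. That last share was 64.8%, beside 61.5% of all DCIS regions that rose and 69.4% of all LINC-only regions in DCIS. Of the 103 LINC-only losses in DCIS, 67 met the enriched regions of shCTRL cells (65.0%, beside 50.1% of all losses) and 24 those of shANCO1 cells (23.3%, beside 16.6%).

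Broad regions carried much of the loss in DCIS. Among LINC-only regions of 15 to 50 tested windows, 63 of 343 fell (18.4%, 14.6 to 22.8), beside 6.80% of all regions of that size. Among LINC-only regions enriched over input in shCTRL cells, 24.1% fell in DCIS, beside 9.01% of all such regions. In 10A, 66.9% of the broad LINC-only regions rose, beside 70.0% of all broad regions. Regions with more windows also had more windows to test.

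The 500 bp at the midpoint of each region were searched on both strands for TGACTCA and its reverse complement TGAGTCA. In DCIS, 29.8% (25.3 to 34.8) of the LINC-only regions that rose held a match, as did 17.9% (15.4 to 20.8) of those not called and 12.6% (7.53 to 20.4) of the 103 that fell. In 10A the shares were 25.8% (22.2 to 29.8) of those that rose and 21.1% (18.4 to 24) of those not called. None of the 5 regions that fell in 10A held one, which allows a share of up to 43.4% by the Wilson interval. In DCIS 25.5% of all regions that rose, 12.5% of those not called and 9.20% of those that fell held a match, and in 10A 20.3%, 16.8% and 5.31%. Over every region of a table, 18.3% in 10A and 15.4% in DCIS held a match. The median GC content of LINC-only regions was 43.7% in 10A and 46.4% in DCIS, below the 46.0% and 49.7% of all regions, and its part in these shares was not tested. LINC-only regions in DCIS had a median width of 800 bp where they rose and 2000 bp where they fell. Over all DCIS regions these widths were 1000 and 1300 bp. The 500 bp searched cover only part of a broad region, and the part of width was not tested either. A match describes the letters and not the binding of a factor.

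**Figure D3:**
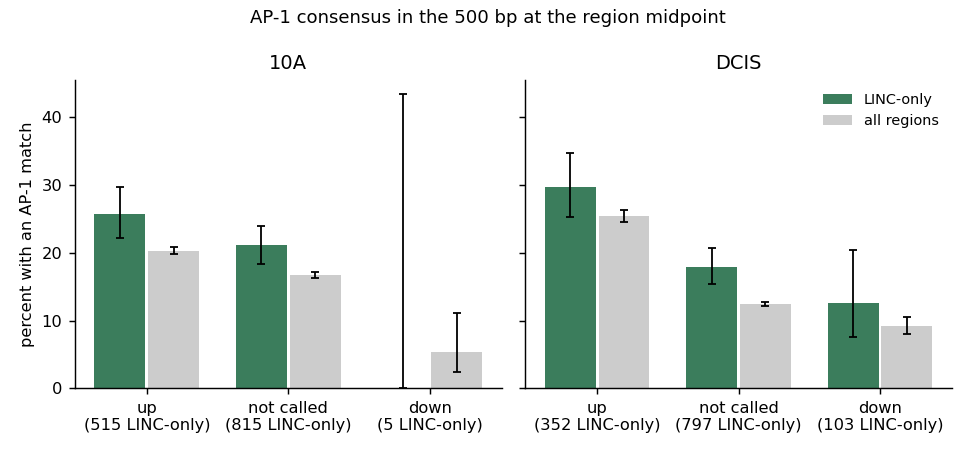
Percent of regions with at least 1 AP-1 consensus match in the 500 bp at their midpoint, by call. Green bars are LINC-only regions, grey bars all regions, and error bars Wilson 95% intervals over regions. In DCIS the green bars step down from 29.8% among regions up to 12.6% among regions down, and the 10A down group holds 5 LINC-only regions.

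The largest gains in 10A, among regions of at least 5 windows with 1 region for each set of symbols, reached about 2 log2 units. An intron region of LINC01349 rose by 2.02 log2 units (FDR 3.71e-05) and lay 88.4 kb from the start of VCAM1, which encodes a vascular cell adhesion molecule. It was enriched over input in shANCO1 cells and overlapped no region enriched in shCTRL cells. A promoter region of LINC02693 rose by 2.01 (FDR 7.2e-06), and the DCIS region that overlapped it had a log2 fold change of 0.05 (FDR 0.982). LINC02763 (1.95, FDR 2.97e-06), LINC02615 (1.91, FDR 2.01e-06) and a region shared by LINC00673 and LINC02003 (1.91, FDR 0.000517) completed the 5. The last lay 218 kb from SOX9, a transcription factor of epithelial progenitors.

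Losses in 10A were few, and their median log2 fold change was -1.08. The largest was a promoter region of LINC01485 (chr5:173812401-173813000) at -1.13 log2 units (FDR 0.015), with 2 of its 5 windows down. Another promoter region of the same gene rose by 0.90, so LINC01485 held both a gain and a loss. An intron region of LINC01592 stood at -1.08 (FDR 0.0382), and the DCIS region over the same place fell by 2.36 (FDR 5.11e-05). Both of these regions had at least 5 windows. The remaining losses, of fewer than 5 windows, were on LINC01985, LINC01093 and LINC01592 again.

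Gains in DCIS were larger, ranked as in 10A among regions of at least 5 windows with 1 region for each set of symbols. A promoter region of LINC01444 (chr18:14974901-14975600) had the highest log2 fold change of all LINC-only regions at 7.22 (FDR 2.3e-13), with all 6 windows up. That region overlapped none enriched over input in either group of DCIS, and the 10A region over the same place stood at 0.49 (FDR 0.422). An intron region of LINC02241 rose by 3.90 (FDR 6.09e-10), held 2 AP-1 matches over its full length, and was enriched over input in shANCO1 cells. LINC02255 (3.84, FDR 5.73e-09), LINC02742 (3.60, FDR 6.48e-09) and LINC01376 (3.46, FDR 5.91e-07) followed, each with every window up. The 10A regions over these last 3 also rose, by 0.92, 1.05 and 1.19 log2 units.

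Losses in DCIS, ranked among regions of at least 5 windows in the same way, reached about 3 log2 units. An intron region of LINC01789 (chr2:107325401-107327400) fell by 3.16 (FDR 1.35e-05), with 18 of 19 windows down. An exon region of LINC01985 (chr3:30525701-30528800) fell by 3.14 (FDR 1.82e-06) and lay 79.4 kb from the start of TGFBR2, the type II receptor of TGF-beta. LINC01122 (-2.79, FDR 4.37e-06), LINC02307 (-2.67, FDR 0.000148) and LINC01483 (-2.64, FDR 4.14e-05) followed. All of these except LINC01483 overlapped a region enriched over input in shCTRL cells and none enriched in shANCO1 cells, and none of the 5 had an AP-1 match. No 10A LINC-only region overlapped any of them.

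Where both lines had a LINC-only region at the same place, 670 regions of 10A could each be paired with the DCIS region sharing the most bases, which used 628 DCIS regions. Of these pairs 135 rose in both lines (20.1%, beside 16.3% of pairs over all regions), 155 rose in 10A without a call in DCIS, and 139 rose in DCIS without a call in 10A. There were 203 pairs called in neither, 26 that fell in DCIS alone, 9 that rose in 10A and fell in DCIS, and 2 that fell in both, on LINC01985 and LINC01592. The last 3 counts were 3.88%, 1.34% and 0.299% of pairs, beside 1.58%, 0.909% and 0.0342% of pairs over all regions. Of the paired regions that rose in 10A, 45.2% also rose in DCIS, and of those not called in 10A, 37.7% did. Over all regions these shares were 32.0% and 26.3%. The rank correlation of the log2 fold changes was 0.11 over the 670 pairs and 0.10 over the 29259 pairs of all regions, given as a description since neighbouring regions are not independent.

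LINC02053 held the shared gain with the largest smaller value, and all 4 of its regions were up in 10A and all 4 up in DCIS. In 10A its log2 fold changes were 1.26, 1.70, 1.87 and 1.77. In DCIS they were 3.46, 4.08, 3.35 and 2.19. All 4 of the 10A regions met enrichment over input in shANCO1 cells, and 2 of them also in shCTRL cells. In DCIS the region at 2.19 had 1 window and that at 3.35 had 2. Neither overlapped a region enriched over input in DCIS cells of either group. Its regions lay over 135 kb from the nearest protein-coding start, that of TTC14. LINC02458 (1.84 in 10A, 1.98 in DCIS), LINC00911 (1.66 and 2.34) and an intron region of LINC00673 (1.64 and 2.10) were the other shared gains with the largest smaller value. The limit of at least 5 windows was not applied to shared gains. The DCIS region of LINC02458 had 2 windows and overlapped no region enriched over input in DCIS.

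Opposite calls were rarer. An intron region of LINC02458 rose by 1.45 in 10A (FDR 0.00491) and stood at -1.50 in DCIS (FDR 0.0315), where the paired region met one enriched over input in shCTRL cells. These regions of 1700 and 3000 bp shared 400 bp, and the pair was lost under a reciprocal overlap of 50%. LINC01121 stood at 1.41 in 10A (FDR 0.00953) and -1.54 in DCIS (FDR 0.0223), with 2 windows called in each line. LINC02774 stood at 1.20 (FDR 0.000406) and -1.57 (FDR 0.0204). None of these 3 DCIS values stayed under an FDR of 0.01.

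**Figure D4:**
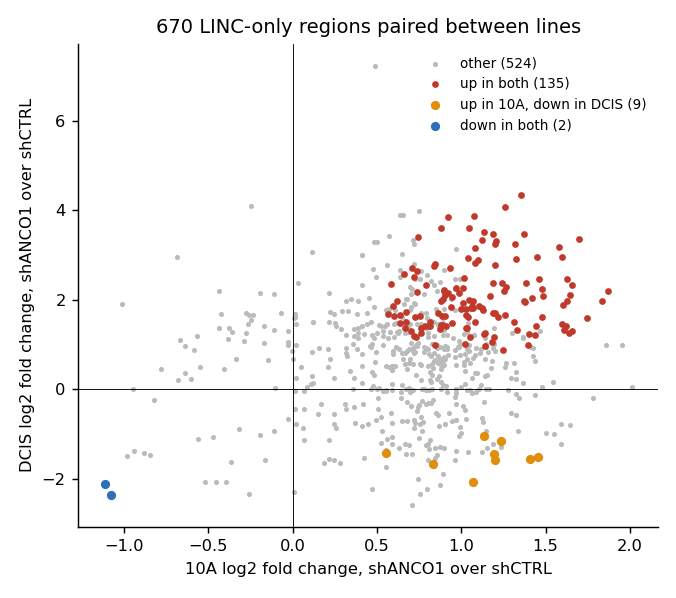
Log2 fold change, shANCO1 over shCTRL, in 10A (x axis) and DCIS (y axis) for 670 paired LINC-only regions, each point a pair. Red points rose in both lines (135), orange points rose in 10A and fell in DCIS (9), and blue points fell in both (2). Most points lie right of 0, and the spread along the DCIS axis is wider than along the 10A axis.

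Counted by gene, 305 of the 541 LINC symbols in 10A had a region that rose and none that fell, 1 had only a loss, 3 had both and 232 had neither. In DCIS 211 of 527 had gains alone, 44 losses alone, 25 both and 247 neither. Of the 376 symbols with regions in both lines, 228 had gains alone in 10A, 185 in DCIS and 125 in both lines. Among symbols with at least 3 regions, all regions rose for 10 of 173 in 10A and 9 of 164 in DCIS, and all fell for 2 in DCIS. These counts have no count over all gene symbols beside them, and a symbol with more regions has more chances of a call. By region, 43.6% of all regions rose in 10A and 23.6% in DCIS. Whether 125 symbols exceed the overlap that counts of 228 and 185 would give by themselves was not tested.

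LINC-PINT, a p53-induced transcript described as a tumor suppressor, had the most regions that rose in 10A. There 17 of its 33 regions rose, the median log2 fold change was 0.96, and values ran from -0.32 to 1.64. In DCIS 5 of 25 rose and 2 fell, with a median of -0.32 and values from -1.57 to 2.25. The DCIS regions that fell lay 82.1 and 115 kb from the gene start, and those that rose lay from 194 to 265 kb from it. LINC00513, annotated on the opposite strand, overlaps this gene, and all 12 of its 10A regions and all 10 of its DCIS regions were also regions of LINC-PINT. These shared regions held 8 of the 17 gains in 10A and 4 of the 5 in DCIS, and the tables cannot assign them to one gene or the other. LINC-PINT also had the most regions of any LINC symbol in each line, and a gene with more regions has more chances of a call. Beside its counts and those of the genes in the next paragraphs, 43.6% of all regions rose and 0.225% fell in 10A. In DCIS 23.6% rose and 4.86% fell. Differences from these shares were not tested.

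LINC00673 had 11 of 19 regions up in 10A, with values from 0.21 to 1.91. In DCIS 6 of its 21 regions rose and 1 fell, with values from -1.31 to 3.30. LINC02742 had 9 of 16 regions up in 10A, and both of its 2 DCIS regions rose, by 1.97 and 3.60. Its 10A regions spread over 319.6 kb.

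LINC02532 had the most regions that rose in DCIS, 7 of 7. Along the chromosome their log2 fold changes were 2.51, 1.37, 2.19, 2.38, 2.32, 1.78 and 1.72. In 10A the gene had 5 regions, of which 2 rose, by 1.03 and 1.19. LINC01374 had 6 of 9 regions up in DCIS, between 68.5 and 369 kb from its start, and 4 of 22 in 10A. LINC02964 had 4 regions up and 3 down of 24 in DCIS, with values from -2.35 to 2.55. All 7 of these changed regions lay before the GENCODE start of that gene, at -103.7 to -41.6 kb along transcription. The authors' annotation places them on the gene, and GENCODE does not. LINC-PINT, LINC00673, LINC02964 and LINC02458 tied with 7 DCIS regions changed, in both directions.

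LINC02458 and LINC00689 were chosen for fuller description after their values were seen, as genes with many losses in DCIS. In LINC02458, 5 of 14 DCIS regions fell, at 62.8 to 192 kb from the gene start, and 2 rose, at 242 and 245 kb. In 10A, 7 of its 17 regions rose, and its nearest protein-coding start was that of DUSP6, a phosphatase that inactivates ERK. All 6 DCIS regions of LINC00689 fell, with log2 fold changes of -2.37, -2.34, -1.32, -1.34, -2.09 and -1.58. The first 2 of these overlapped regions enriched over input in shCTRL cells and none enriched in shANCO1 cells. In 10A the gene had 1 region, at -0.26 and not called.

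**Figure D5:**
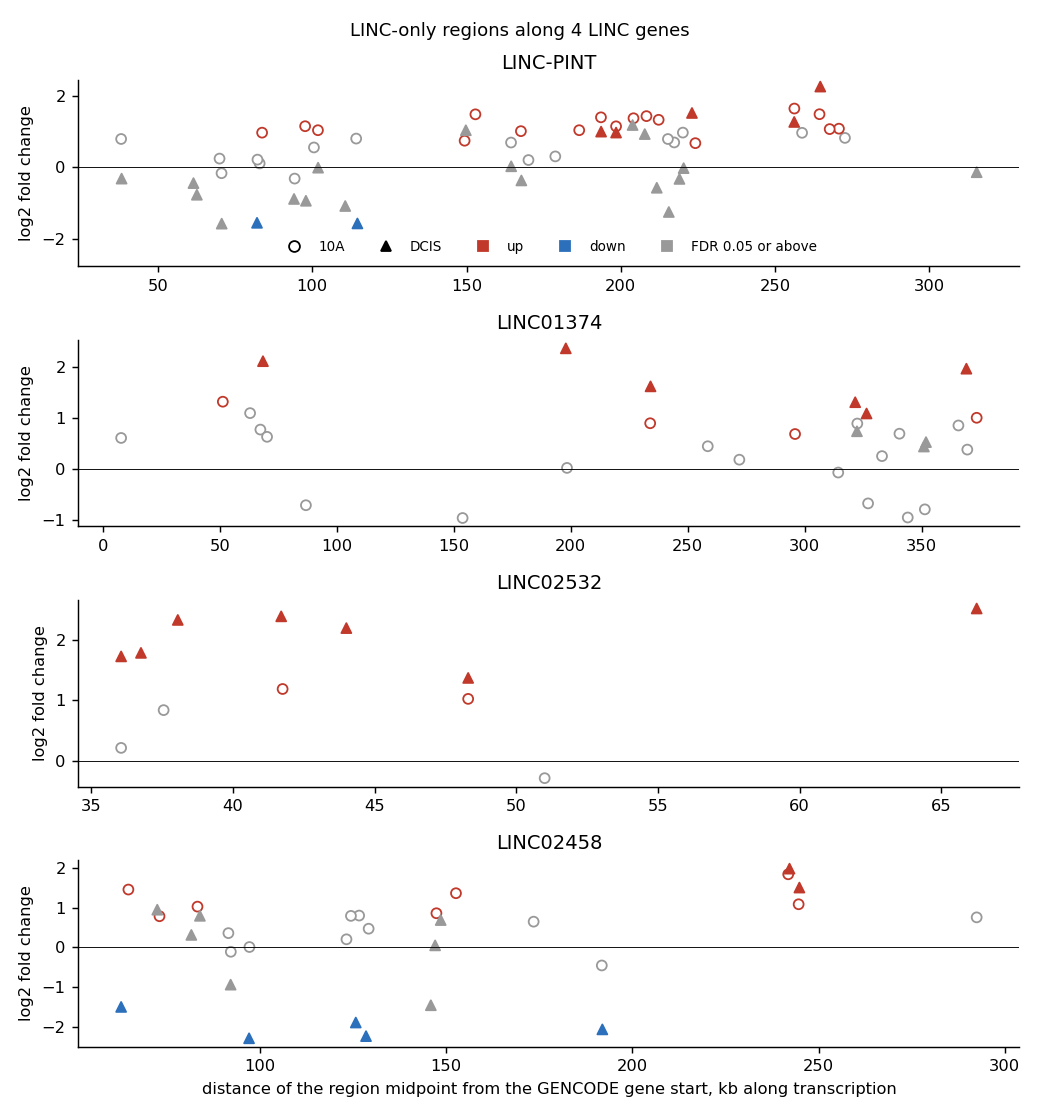
Log2 fold change of each LINC-only region (y axis) against the distance of its midpoint from the GENCODE gene start in kb (x axis) for LINC-PINT, LINC01374, LINC02532 and LINC02458. Open circles are 10A, filled triangles DCIS, red is up, blue is down and grey is not called. In LINC-PINT and LINC02458 the blue triangles lie nearer the start than the red ones.

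A list of 25 LINC genes with described roles, mostly in cancer, was followed as a group. In 10A 10 of them had LINC-only regions, 76 in all when a region over more than 1 listed gene is counted once, of which 40 rose (52.6%, beside 43.6% of all regions), with at least 1 gain in 9 genes. In DCIS 9 had regions, again 76 in all, of which 15 rose (19.7%, beside 23.6%) and 4 fell (5.26%, beside 4.86%). LINC-PINT alone gave 33 of the 10A regions, and LINC00511 and LINC00673 shared 8 regions in 10A and 10 in DCIS.

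Taken by the region with the lowest FDR in each line, LINC-PINT stood at 1.39 in 10A (FDR 2.76e-06, a region shared with LINC00513) and 2.25 in DCIS (FDR 2.31e-06). LINC00511, described as promoting breast cancer growth, stood at 1.42 (FDR 0.00242, a region of 2 windows) and 2.05 (FDR 1.55e-07). Over all its regions, 5 of 12 rose in 10A, at a median of 0.54. In DCIS 1 of its 16 regions rose, at a median of -0.29. LINC00673 stood at 1.91 (FDR 0.000517) and 3.30 (FDR 6.95e-06). LINC00472, described as a suppressor in breast cancer, stood at 1.26 (FDR 0.00946) and 1.74 (FDR 0.00885), with 1 of 3 regions up in 10A and 2 of 11 in DCIS. LINC00707, whose regions here are shared with LINC00706, stood at 0.89 (FDR 0.00375) and 1.64 (FDR 0.000703), with 2 of 5 regions up in 10A and 1 of 3 in DCIS. LINC00963, first described in prostate cancer, rose by 0.92 in 10A (FDR 0.00225) and fell by 2.001 in DCIS (FDR 0.00106), at different regions of the gene. Of the genes given before it, LINC-PINT had 2 DCIS regions that fell and LINC00511 and LINC00673 had 1, which they shared. LINC00941 (1.13, FDR 7.66e-06) and LINC01116 (1.27, FDR 0.00295, a region shared with LINC01117) had LINC-only regions in 10A and not in DCIS.

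Each region was also assigned to its nearest protein-coding start, by distance alone and with no evidence here of contact. The genes below were chosen after their values were seen. Beside their counts, 43.6% of all regions rose and 0.225% fell in 10A, and 23.6% rose and 4.86% fell in DCIS. With so few regions for each gene, a difference from these shares was not tested. JUN, a subunit of AP-1, was the nearest protein-coding start of 21 LINC-only regions in 10A, of which 12 rose, and of 9 in DCIS, of which 3 rose, all of them 34.7 to 246 kb away. SOX9 was nearest to 18 regions in 10A, with 10 up, and to 20 in DCIS, with 6 up and 1 down, at 176 to 483 kb. FOXO1, a transcription factor restrained by insulin signalling, was nearest to 28 regions in 10A, with 4 up, and to 11 in DCIS, with 1 up and 4 down, at 213 to 497 kb. DUSP10, a phosphatase of stress kinases, was nearest to 13 regions in DCIS, with 10 up and a median log2 fold change of 2.03, and to 9 in 10A, with 3 up, at 85.0 to 233 kb. BTG1, an antiproliferative gene, was nearest to 8 regions in each line, with 7 up in 10A and 2 up and 1 down in DCIS, at 7.5 to 224 kb.

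By chromosome, LINC-only shares of gains in 10A varied. They were 38.8% on chromosome 2 and 40.2% on chromosome 1, beside 43.3% and 45.3% of all regions there. On chromosome X 12 of 17 rose (70.6%, beside 41.3%), and on chromosome 16 5 of 22 (22.7%, beside 45.9%). On chromosome 13, which holds the regions near FOXO1, 15 of 71 rose in 10A (21.1%, beside 37.0% of all regions of that chromosome). In DCIS 31 of 70 rose on chromosome 3 (44.3%, beside 33.1%), 12 of 27 on chromosome 18 (44.4%, beside 24.8%) and 3 of 40 on chromosome 9 (7.5%, beside 23.5%). These chromosomes are examples, some with few LINC-only regions, and no difference between chromosomes was tested.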

How the data were processed

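H3K27Ac ChIP-seq had been done in 24 libraries of 10A and DCIS cells. According to the methods of the study, the reads were aligned by BWA and Rsubread to GRCh38, deduplicated in samtools, compared between groups in csaw and annotated in ChIPpeakAnno. The authors deposited 6 tables with 1 line per region, of which 2 compare shANCO1 with shCTRL and 4 compare a group with input. The deposited log2 fold change is that of 1 representative window, and the deposited FDR is the authors' p-value for the region after adjustment across its table. The numbers of windows count tests and not reads. All values are therefore the authors' own comparisons. Library depth, replicate spread, normalization and window filters are not given in the sources used here, so depth sets no interval.

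Here, regions were chosen from the symbols and counted with pandas 2.3.3 on Python 3.11.15. A call needed an FDR under 0.05 and the authors' direction, and enrichment over input the same with direction up. Overlap was at least 1 bp. Placement, gene starts and protein-coding starts came from GENCODE release 44. Of 2832 placements of a LINC symbol, 2686 had a GENCODE gene of that name, of which 97.3% lay within 5 kb. RefSeq named 673 of the 692 symbols. Of the LINC-only regions, 10 in 10A and 9 in DCIS also lay over a protein-coding gene body of GENCODE. The sequences were read from hg38. Overlap, pairing and distance steps were tested on simulated regions.

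No test was run here. The members, the list of genes and the rules were chosen with earlier results of these data known. Named regions were, by line and direction, the 5 with the largest absolute log2 fold change among those called with at least 5 windows. Added to them were the 3 symbols with most regions up, the 5 pairs up in both lines, the 3 with opposite calls, the 3 symbols changed both ways in DCIS, and 8 genes of the list of 25 by lowest FDR. Alternatives were other FDR limits, a fold change limit, direction by sign or by windows, at least 5 windows, centring on the table median, other overlap rules, other motif windows and other distances.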

Additional observations from a re-analysis of the deposited data

How the results depend on the processing

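The deposited values have no reads or libraries behind them, so no replicate could be left out and read depth sets no limit that can be stated. No paired analysis was possible because the tables hold no value per library. Of 83 comparisons of main results with an alternative, 47 stayed close, within 1.5 times for counts or within the interval of a share, and the median stayed above 0 in each. For 10A, 322 regions rose at an FDR under 0.01 and 19 of those called rose 1 log2 unit or more above the median of the table, while 5 fell as far below it, a count that centring cannot raise since the call keeps the deposited zero. Centred in this way, DCIS had 242 up and 103 down, so the order of the lines in gains turned. Losses in 10A numbered 0 at an FDR under 0.01, 10 at 0.1 and 2 with at least 5 windows, and with at least 5 windows 0 symbols had losses alone. With at least 5 windows (shares added after the data were seen) 50.8% rose in 10A at a median of 0.85, and in DCIS 217 regions rose and 11.1% fell. At an FDR under 0.01, 51 regions fell in DCIS. Enrichment over input covering 50% of a region held for 18.9% (shANCO1) and 3.67% (shCTRL) in 10A and 5.67% and 6.54% in DCIS. Enrichment at an FDR under 1e-10 held for 31.5% and 11.8% in 10A and 21.4% and 14.8% in DCIS. Beyond 100 kb from a protein-coding start lay 58.1% in 10A and 60.8% in DCIS. Within 200 bp an AP-1 match was held by 11.1% of regions up and 8.47% not called in 10A, and by 12.5% and 7.78% in DCIS. Within 1000 bp these became 44.1%, 41.5%, 52.8% and 34.4%, since a longer window holds more letters. A reciprocal overlap of 50% left 362 pairs, with 67 up in both lines, 3 with opposite calls, and 1 down in both. An FDR under 0.01 left 71 pairs up in both, 0 with opposite calls and 0 down in both. Of 33 named regions, 28 stayed under an FDR of 0.01.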
